A study of Mus musculus with 16 samples.

Results

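The sites described here are PPARγ peaks that lie beside a separate C/EBPα peak. A peak belonged to the set when it shared no base with any C/EBPα peak but had its nearest C/EBPα peak centre within 1000 bp. The rule used the positions of called peaks and no signal value, although the calls themselves rest on PPARγ and C/EBPα signal. It gave 3386 of the 30588 PPARγ peaks, or 11.1%, and 17.3% of the 19554 PPARγ peaks that shared no base with C/EBPα. They are called adjacent PPARγ peaks below, and the nearest C/EBPα peak of each is its C/EBPα neighbour. There were 3213 such neighbours, 10.5% of the 30519 C/EBPα peaks. They were set against 2 other classes of the same PPARγ list: 16168 isolated PPARγ peaks, with no C/EBPα centre within 1000 bp, and 11034 shared PPARγ peaks, with at least 1 base in common with a C/EBPα peak.

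Chromatin immunoprecipitation with sequencing had been done in 3T3-L1 adipocytes, a mouse fibroblast line turned into fat cells in culture. All cells were at day 7 of differentiation and received 1 µM rosiglitazone in 0.1% DMSO, or 0.1% DMSO alone, for 1 h. The files gave 1 column of signal per treatment for each of PPARγ, C/EBPα, MED1 and CBP, so no replicate check of any treatment difference was possible. Input and RNA polymerase libraries are not used here, and the cell type was not checked against marker genes, since occupancy gives no expression.

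PPARγ is the nuclear receptor that directs fat cell differentiation, and rosiglitazone is a ligand of it. C/EBPα is a leucine zipper factor that is induced alongside PPARγ and binds near it at many adipocyte genes. MED1 is the subunit through which Mediator contacts ligand-bound receptors. CBP acetylates histones and is recruited by many activators.

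Each deposited signal value could be turned back into a whole number of sequenced tags. Adjacent PPARγ peaks held a median of 18 PPARγ tags in rosiglitazone and 11 in DMSO. For C/EBPα the medians were 3 and 2 tags, for MED1 2 and 4, and for CBP 1 and 3. Single peaks were thus poorly measured for all but PPARγ, and treatments were compared through tags summed over many peaks. Every ratio below is rosiglitazone over DMSO on the authors' scaling. Its bracketed range is an exact 95% interval that covers counting error only. Differences between cultures are not covered, because each factor had 1 column per treatment, and neither are duplicated tags. In bulk chromatin, fewer occupied cells and lower occupancy per cell cannot be told apart.

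One locus stood apart from all others. The peak on mm9 chromosome 17 from 39984988 to 39985174 had the highest score of the PPARγ list, 875.6, and its neighbour from 39984676 to 39984906 had the highest of the C/EBPα list, 5345.6. PPARγ signal in the adjacent peak was 1041 units in rosiglitazone and 719 in DMSO, and C/EBPα signal in the neighbour was 4858 and 6244 units. MED1 in the neighbour was 1592 and 1020 units, so all antibodies were high there. Its effect is given beside the C/EBPα sums, which it touches most. The 6 adjacent PPARγ peaks in regions of high background changed no class ratio by more than its counting interval.

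The adjacent peaks were spread over all 20 chromosomes that carried members, from 8.65% of the PPARγ peaks of chromosome 13 to 13.3% of those of chromosome 17. Distances between centres ran from 209 to 999 bp with a median of 487 bp, and the quartiles were 333 and 690 bp. Numbers declined with distance up to the limit: 664 lay within 300 bp, 579 between 300 and 400 bp, 518 between 400 and 500 bp and 220 between 900 and 1000 bp. Beyond the limit, 236 PPARγ peaks lay at 1000 to 1100 bp and 82 at 2900 to 3000 bp. Numbers thus showed no drop at the limit. The 3 peaks just inside it, at 998 to 999 bp, held PPARγ signal of 12.5, 14.1 and 25.8 units in rosiglitazone against 7.03, 14.1 and 8.79 units in DMSO. The 3 just outside, all at 1001 bp, held 20.8, 7.48 and 10.8 units in rosiglitazone against 14.9, 11.4 and 7.91 units in DMSO.

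**Figure D1:**
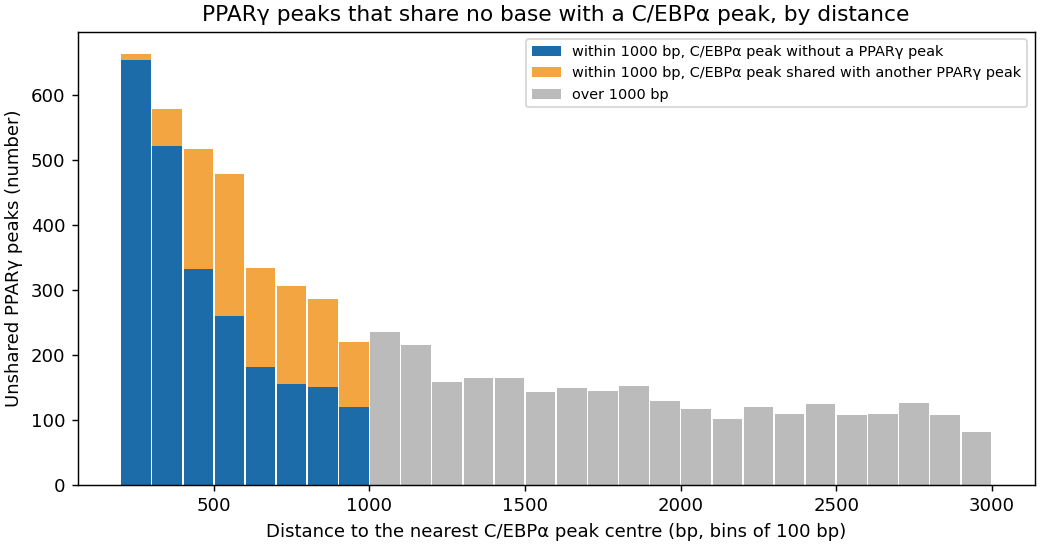
Number of PPARγ peaks sharing no base with a C/EBPα peak (vertical axis) by distance to the nearest C/EBPα peak centre in bins of 100 bp (horizontal axis). Blue and orange are adjacent peaks, split by whether the C/EBPα neighbour also shares bases with another PPARγ peak, and grey peaks lie beyond 1000 bp; the bins decline from 664 to 220 inside the limit, and the first bin beyond it holds 236.

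The neighbourhoods were of 2 kinds. For 2375 adjacent peaks the C/EBPα neighbour had no PPARγ peak on it, so each factor had a peak of its own. For the other 1011, or 29.9%, the neighbour shared bases with another PPARγ peak, which makes the adjacent peak a second PPARγ peak beside a site with peaks of both factors. This second kind made up 1.51% of adjacent peaks within 300 bp, 9.85% between 300 and 400 bp, 35.9% between 400 and 500 bp and 45.5% to 49.4% in each bin beyond. Close to the neighbour there is little room for a second, separate PPARγ peak that also lies on the neighbour. The window lengths thus limit the shares at short distance, and how much of the rise follows from this was not tested. Among all C/EBPα peaks 36.2% shared bases with a PPARγ peak.

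Most adjacent peaks, 3175, had 1 C/EBPα centre within 1000 bp, while 210 had 2 and 1 had 3. Of the neighbours, 3043 were nearest to 1 adjacent peak, 167 to 2 and 3 to 3, and 123 had an adjacent peak on each side. The neighbour lay at the higher coordinate for 1686 peaks and at the lower for 1700. A second PPARγ peak lies on the neighbour of 1011 adjacent peaks by the definition of that kind. Of the 2375 adjacent peaks of the other kind, 59.5% had another PPARγ peak centre within 10 kb, against 48.4% of isolated, 58.9% of shared and 54.8% of all PPARγ peaks.

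Adjacent PPARγ peaks were intermediate in height. Their median PPARγ signal, averaged over both treatments, was 12.3 units, with quartiles of 9.46 and 18.1. Isolated PPARγ peaks had a median of 10.2 units and shared PPARγ peaks 15.1 units. The neighbours had a median C/EBPα height of 18.2 units, against 14.1 for the other C/EBPα peaks without a PPARγ peak and 21.7 for the other C/EBPα peaks that shared bases with one. Adjacent peaks had the lowest focus ratios of the PPARγ classes. The authors' focus ratio, a fraction per peak, had a median of 0.760 at adjacent peaks, 0.826 at isolated and 0.812 at shared PPARγ peaks. It was 0.734 for adjacent peaks within 500 bp of the neighbour and 0.789 for those farther away.

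PPARγ occupancy was higher in rosiglitazone at the adjacent peaks. Summed PPARγ signal was 117 units per kb in rosiglitazone and 72.6 in DMSO, a ratio of 1.62 (1.60 to 1.64). Taken chromosome by chromosome it lay above 1 on 20 of 20, with the lowest value, 1.43, on X and the highest, 1.85, on 14. All chromosomes were read from the same pair of columns, so here and below they are not replicates of the treatment. The ratio at isolated PPARγ peaks was 1.39 (1.38 to 1.40), and that at shared PPARγ peaks 1.63 (1.62 to 1.63). The adjacent ratio divided by the isolated ratio was 1.16 (1.15 to 1.18) and exceeded 1 on 20 of 20 chromosomes; at equal total tags it was 1.12 (1.10 to 1.13). Divided by the shared ratio it was 0.995 (0.983 to 1.01), and at equal total tags 1.03 (1.01 to 1.04). The PPARγ ratio of adjacent peaks was therefore above that of isolated peaks by more than counting error, and within a few percent of that of shared peaks.

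The difference from isolated peaks was present at every peak height. PPARγ peaks were divided into 4 bands by the authors' score, and from the lowest band to the highest the adjacent over isolated ratio for PPARγ was 1.19, 1.20, 1.11 and 1.09. All 4 intervals lay above 1.

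Peak by peak, fewer adjacent peaks than in the whole list had lower PPARγ signal in rosiglitazone. At least 2-fold higher PPARγ signal in rosiglitazone, with a pseudocount of 1 unit, was found at 1114 adjacent peaks, or 32.9%, where 30.0% of all PPARγ peaks passed. At least 2-fold lower signal was found at 77, or 2.27%, against 4.43% of all PPARγ peaks. With at least 20 PPARγ tags, 995 of 3035 were higher and 60 lower, against 30.3% and 4.03% of all such PPARγ peaks. The median log2 ratio was 0.62 at adjacent peaks and 0.50 over all PPARγ peaks. The share with higher signal was thus close to the background, while the share with lower signal was below it. Centred on the median log2 ratio of all PPARγ peaks, 534 adjacent peaks, or 15.8%, were higher and 300, or 8.86%, lower, against 15.6% and 13.4% of all PPARγ peaks.

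PPARγ signal was also present in the windows of the neighbours. At neighbours with no PPARγ peak of their own it was 41.0 units per kb in rosiglitazone and 23.2 in DMSO, a ratio of 1.76 (1.73 to 1.80). Other C/EBPα peaks without a PPARγ peak held 19.6 and 13.9 units per kb, a ratio of 1.41 (1.39 to 1.42). The ratio of these ratios was 1.26 (1.23 to 1.28), above 1 on 20 of 20 chromosomes. The PPARγ ratio was higher at such neighbours than in the PPARγ peaks beside them. The ratio in the PPARγ window divided by that in the neighbour was 0.920 (0.8975 to 0.943), above 1 on 4 of 20 chromosomes. It was 0.936 (0.913 to 0.960) without the chromosome 17 locus. Without the chromosome 17 locus, density at such neighbours declined with distance. It was 48.9 units per kb in rosiglitazone and 28.7 in DMSO at 208 to 250 bp from the PPARγ peak, and 28.7 and 16.7 at 900 to 1000 bp.

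C/EBPα showed the opposite direction. In the windows of the adjacent PPARγ peaks its signal was 27.5 units per kb in rosiglitazone and 32.7 in DMSO, a ratio of 0.843 (0.821 to 0.866), and 0.853 (0.830 to 0.876) without the chromosome 17 locus. By chromosome the value exceeded 1 on 0 of 20, with 0.720 on 17 as the lowest and 0.969 on 16 as the highest. Without the chromosome 17 locus that chromosome gave 0.811, and the lowest value was 0.739, on 18. Isolated PPARγ peaks had 17.3 and 17.6 units per kb, a ratio of 0.980 (0.964 to 0.996), and shared PPARγ peaks 151 and 152 units per kb, a ratio of 0.994 (0.987 to 1.00). The adjacent ratio was 0.860 (0.834 to 0.887) times the isolated one and 0.848 (0.826 to 0.872) times the shared one. It lay below the isolated ratio in all 4 score bands, at 0.842, 0.855, 0.822 and 0.828 times it. By the rule, adjacent and isolated peaks have no called C/EBPα peak on them, while shared peaks do. A window with enough C/EBPα signal for a call would thus have left the adjacent class. The part of this in the C/EBPα ratios was not tested.

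The same direction held at the neighbours. C/EBPα signal there was 130 units per kb in rosiglitazone and 142 in DMSO, a ratio of 0.918 (0.907 to 0.928). Without the chromosome 17 locus the density was 123 and 133 units per kb, a ratio of 0.926 (0.916 to 0.938). The ratio was 0.921 (0.907 to 0.935) at neighbours without a PPARγ peak, and 0.937 (0.922 to 0.951) without the chromosome 17 locus. The other C/EBPα peaks without a PPARγ peak had a ratio of 1.06 (1.05 to 1.06). The neighbour ratio was 0.872 (0.858 to 0.887) times theirs, 0.887 (0.872 to 0.902) without the chromosome 17 locus, and 0.894 (0.880 to 0.909) at equal total tags. Neighbours with a PPARγ peak on them had 0.913 (0.896 to 0.930), against 1.00 (0.997 to 1.01) at the other C/EBPα peaks of that kind. If both columns are scaled alike, the C/EBPα library in DMSO held 0.577 times the tags of that in rosiglitazone, and the part of this in the ratios was not tested.

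C/EBPα in adjacent windows declined with distance from the neighbour. Over pairs of both kinds, without the chromosome 17 locus, it was 33.5 units per kb in rosiglitazone and 42.5 in DMSO at 208 to 250 bp, 25.5 and 28.4 at 500 to 600 bp, and 22.1 and 23.8 at 900 to 1000 bp. In the last bin it still lay above the isolated peaks, at 17.3 and 17.6. Where the neighbour had no PPARγ peak, it was nearer to them. There it was 18.7 and 19.8 at 800 to 900 bp, and 18.8 and 22.15 at 900 to 1000 bp. Isolated peaks were also lower in PPARγ height, which was not matched here. By single peaks, 706 adjacent peaks, or 20.9%, had at least 2-fold higher C/EBPα in rosiglitazone against 24.5% of all PPARγ peaks. At least 2-fold lower C/EBPα was found at 876, or 25.9%, against 18.7%. Only 118 adjacent peaks held at least 20 C/EBPα tags. Among these 19 were higher and 16 lower, against 15.4% and 8.07% of all PPARγ peaks with such counts.

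**Figure D2:**
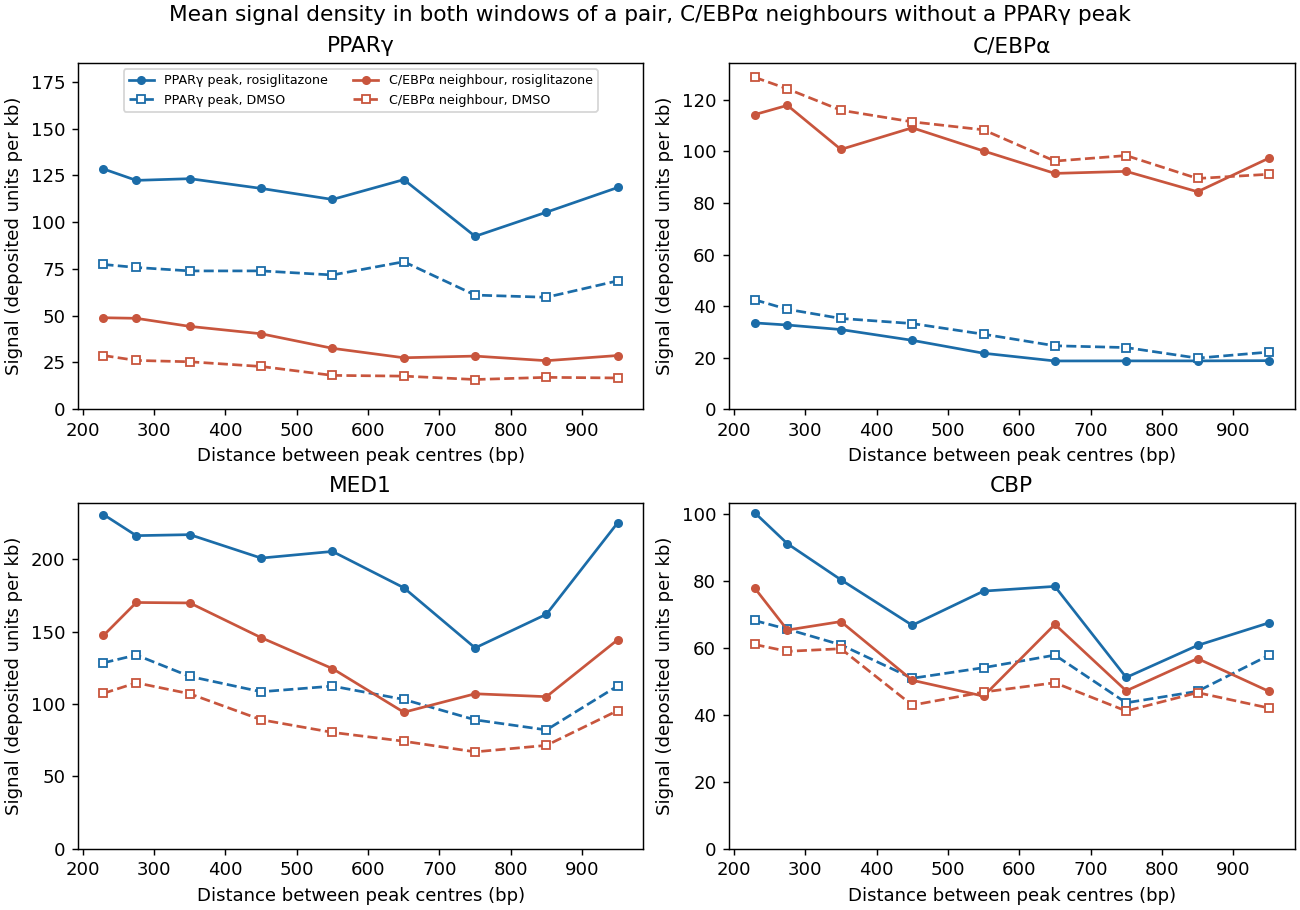
Mean signal density in deposited units per kb (vertical axes, 1 panel per factor) by distance between peak centres in bp (horizontal axes), in the PPARγ peak (blue) and its C/EBPα neighbour (red), for rosiglitazone (filled, solid) and DMSO (open, dashed). Pairs whose neighbour has no PPARγ peak are shown, without the chromosome 17 locus; PPARγ in the neighbour and C/EBPα in the PPARγ peak both decline with distance, and MED1 is higher in rosiglitazone in both windows.

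MED1 was the coactivator with the larger difference. At adjacent PPARγ peaks it was 200 units per kb in rosiglitazone and 113 in DMSO, a ratio of 1.77 (1.73 to 1.80), above 1 on 20 of 20 chromosomes. Isolated PPARγ peaks held 91.6 and 57.7 units per kb with a ratio of 1.59 (1.57 to 1.61), and shared PPARγ peaks 248 and 153 with a ratio of 1.61 (1.60 to 1.63). The adjacent ratio was 1.09 (1.07 to 1.12) times the shared one, above 1 on 18 of 20 chromosomes and in all 4 score bands. At equal total tags it was 1.16 (1.13 to 1.19) times the shared one.

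The comparison of MED1 with isolated peaks was less firm. The adjacent ratio was 1.11 (1.08 to 1.14) times the isolated one and above it on 17 of 20 chromosomes. At equal total tags the value was 1.06 (1.03 to 1.09). Against the 8880 PPARγ peaks over 10 kb from any C/EBPα peak it was 1.07 (1.04 to 1.11), and at equal total tags 1.00 (0.970 to 1.03). By single peaks, 1205 adjacent peaks, or 35.6%, had at least 2-fold higher MED1 against 29.8% of all PPARγ peaks, and 682, or 20.1%, had at least 2-fold lower MED1 against 22.5%. With at least 20 MED1 tags, 256 of 539 were higher, where 45.1% of all such PPARγ peaks passed, and 28 were lower, against 8.14%.

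CBP was higher in rosiglitazone as well, but by no more than in the other PPARγ classes. Its signal was 79.3 units per kb in rosiglitazone and 58.2 in DMSO, a ratio of 1.36 (1.33 to 1.40), against 1.42 (1.40 to 1.44) at isolated and 1.36 (1.35 to 1.38) at shared PPARγ peaks. Relative to the isolated peaks the ratio was 0.959 (0.930 to 0.989), so the direction of CBP depends on the scaling. By single peaks, 902, or 26.6%, were at least 2-fold higher against 23.6% of all PPARγ peaks, and 988, or 29.2%, at least 2-fold lower against 25.1%. With at least 20 CBP tags, 60 of 273 were higher and 20 lower, against 22.7% and 5.70% of all such PPARγ peaks. The 211 adjacent peaks with 2 or 3 C/EBPα centres within 1000 bp had a CBP ratio of 1.66 (1.50 to 1.83) and a MED1 ratio of 1.83 (1.69 to 1.98). MED1 and CBP libraries were deeper in DMSO, by 2.19 and 2.74 times if both are scaled alike, and the part of this in their ratios was not tested.

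**Figure D3:**
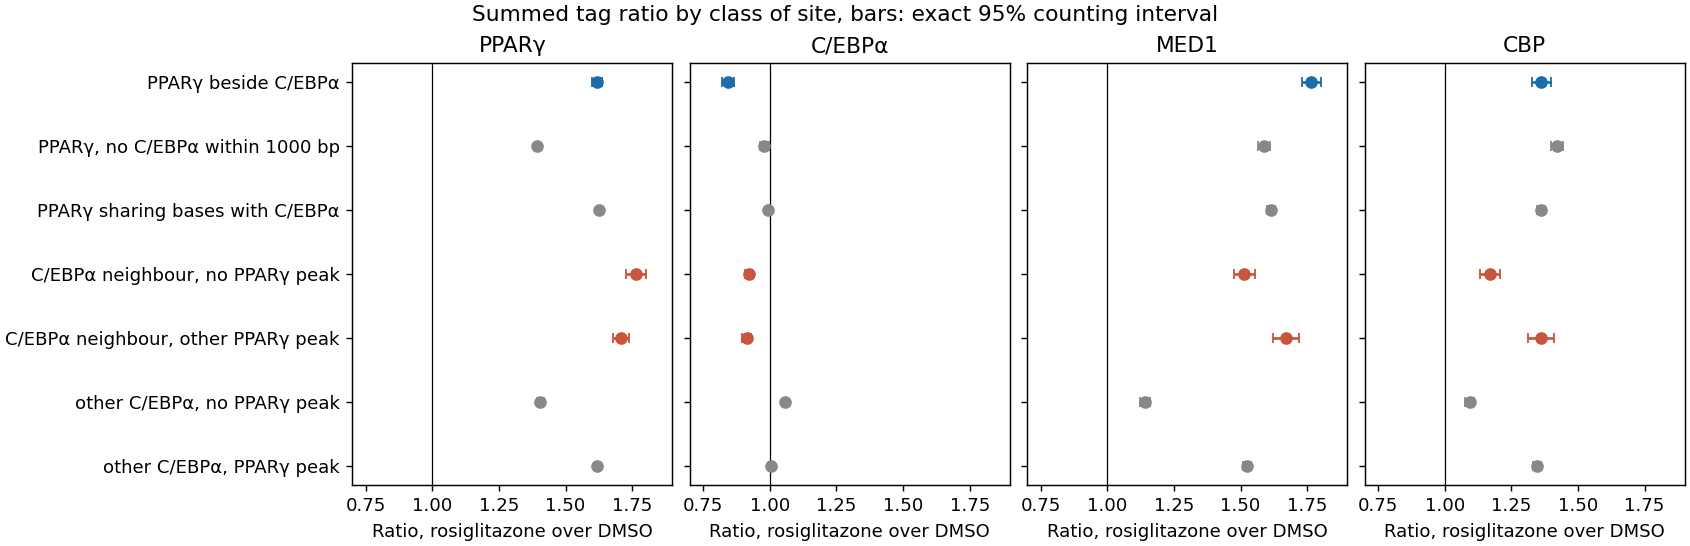
Ratio of summed tags, rosiglitazone over DMSO (horizontal axes, 1 panel per factor), for adjacent PPARγ peaks (blue), their C/EBPα neighbours (red) and the remaining classes (grey), with bars for the exact 95% counting interval. Adjacent peaks have the lowest C/EBPα ratio shown, 0.843, and the highest MED1 ratio, 1.77.

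**Figure D4:**
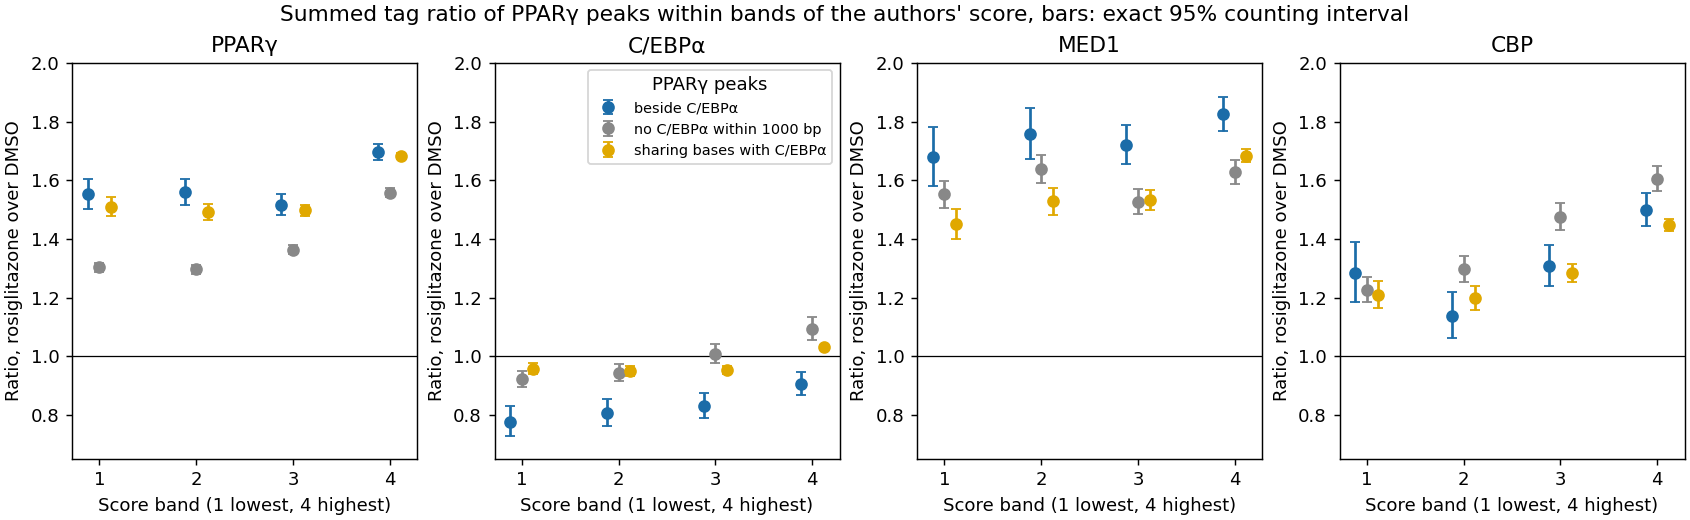
Ratio of summed tags, rosiglitazone over DMSO (vertical axes, 1 panel per factor), in 4 bands of the authors' PPARγ peak score from low to high (horizontal axes), for adjacent (blue), isolated (grey) and shared (yellow) PPARγ peaks, with bars for the exact 95% counting interval. In every band the adjacent peaks have the lowest C/EBPα ratio and the highest MED1 ratio.

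The coactivators were not confined to the PPARγ side of a pair. Per base, 52.9% of the MED1 tags of all pairs lay in the PPARγ window in rosiglitazone and 50.1% in DMSO, and for CBP 49.5% and 47.4%. The kind of neighbour moved these shares. With a neighbour that had no PPARγ peak, the PPARγ side held 59.4% of MED1 in rosiglitazone and 55.5% in DMSO, and 56.6% and 53.0% of CBP. With a neighbour that also carried a PPARγ peak, it held 41.3% and 40.3% of MED1, and 38.8% and 38.3% of CBP. Pair by pair, among those with at least 20 tags of a factor in both windows together, PPARγ was denser in the PPARγ window in 2923 of 3380 pairs and C/EBPα in 34 of 2700, which the choice of peaks fixes. MED1 was denser in the PPARγ window in 789 pairs and in the neighbour in 829. For CBP the numbers were 430 and 519.

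By distance, over all pairs, the PPARγ side held 54.6% of MED1 in rosiglitazone and 52.3% in DMSO within 500 bp, and 49.97% and 46.7% over 500 bp, where more neighbours carried a PPARγ peak. Among pairs whose neighbour had no PPARγ peak the order was the opposite. There the PPARγ side held 57.2% (56.5 to 58.0) of MED1 in rosiglitazone and 53.8% (53.1 to 54.5) in DMSO within 500 bp, and 61.7% (60.6 to 62.9) and 56.7% (55.7 to 57.8) over 500 bp. Among pairs whose neighbour carried a PPARγ peak it held 41.5% (39.7 to 43.2) and 44.2% (42.6 to 45.8) within 500 bp, and 41.1% (40.1 to 42.1) and 39.1% (38.2 to 40.0) over 500 bp.

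The MED1 ratio differed between the 2 windows of a pair. It was 1.77 in the PPARγ window and 1.58 (1.55 to 1.61) in the neighbour, a ratio of ratios of 1.12 (1.09 to 1.15), above 1 on 17 of 20 chromosomes. For CBP, the neighbour had 1.25 (1.22 to 1.28), and the ratio of ratios was 1.09 (1.05 to 1.13). Where the neighbour had no PPARγ peak, the ratios of ratios were 1.17 (1.13 to 1.22) for MED1 and 1.16 (1.10 to 1.21) for CBP. Where the neighbour carried a PPARγ peak, the values were 1.04 (0.990 to 1.09) and 1.02 (0.964 to 1.09). At equal total tags, MED1 gave 1.16 (1.12 to 1.20) for neighbours without a PPARγ peak and 1.11 (1.06 to 1.17) for those with one, so the 2 kinds were not told apart for MED1. CBP gave 1.16 (1.10 to 1.21) and 1.04 (0.981 to 1.11).

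Neighbours without a PPARγ peak nevertheless held more MED1 than other C/EBPα peaks of that kind. Their MED1 was 141 units per kb in rosiglitazone and 93.0 in DMSO, a ratio of 1.51 (1.47 to 1.55). The other C/EBPα peaks without a PPARγ peak held 43.3 and 37.9 units per kb, a ratio of 1.14 (1.12 to 1.16). The ratio of ratios was 1.32 (1.28 to 1.37), above 1 on 20 of 20 chromosomes, and 1.18 (1.14 to 1.21) at equal total tags. For CBP it was 1.07 (1.03 to 1.11). Neighbours with a PPARγ peak differed less from the other C/EBPα peaks of that kind, by 1.10 (1.06 to 1.13) for MED1 and 1.01 (0.975 to 1.05) for CBP. PPARγ signal in these windows moved the same way, and its part in the MED1 difference was not tested.

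Neighbour by neighbour, MED1 was at least 2-fold higher in rosiglitazone at 1033 of 3213, where 24.4% of all C/EBPα peaks passed, and at least 2-fold lower at 710, against 27.0%. PPARγ signal was at least 2-fold higher at 1224 neighbours, or 38.1%, against 30.8% of all C/EBPα peaks, and lower at 139, against 7.09%. C/EBPα itself was higher at 411, or 12.8%, against 15.9%, and lower at 392, or 12.2%, against 9.25%. CBP was higher at 745, or 23.2%, against 20.8%, and lower at 971, or 30.2%, against 28.4%. For their own factor, most neighbours thus lay within 2-fold, as did most C/EBPα peaks of the whole list. Among neighbours with at least 20 tags of the factor in question, PPARγ was higher at 581 of 1459 and lower at 27, where the shares over all such C/EBPα peaks were 34.0% and 2.93%. C/EBPα was higher at 212 of 1889 and lower at 192, against 13.8% and 7.38%. MED1 was higher at 295 of 709 and lower at 44, against 37.8% and 9.70%. For CBP 87 of 415 were higher and 25 lower, against 19.1% and 6.62%, so CBP stayed near the background.

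Within the adjacent window, the summed MED1 ratio rose with the PPARγ ratio over the lower 4 of 5 groups of pairs. Pairs were used whose neighbour had no PPARγ peak and whose adjacent peak held at least 20 PPARγ tags. They were ordered by the PPARγ ratio of the adjacent peak and divided into 5 groups of 425 or 426, without the chromosome 17 locus. Summed MED1 ratios in the PPARγ window were 1.24, 1.59, 1.81, 1.99 and 1.996 from the lowest group to the highest. In the neighbour's window they were 1.33, 1.63, 1.58, 1.55 and 1.46. The neighbour's MED1 ratio was thus lowest in the lowest group, at 1.33 (1.236 to 1.437), and highest in group 2, at 1.63 (1.534 to 1.737). It was lower again in each group after that, but each interval overlapped the one before. Over pairs of both kinds, without the chromosome 17 locus, the highest value was 1.648, in group 4. CBP showed little order in the PPARγ window, with 1.34, 1.36, 1.38, 1.26 and 1.48. C/EBPα in the PPARγ window was lowest in the middle groups, with 0.937, 0.775, 0.770, 0.717 and 0.951. Single pairs showed only weak relations: over the 523 adjacent peaks that reached 20 tags for PPARγ and for MED1, Spearman's rho between their log2 ratios was 0.113 and Pearson's r 0.184. The points share 1 pair of libraries per factor, and peaks are not replicates.

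**Figure D5:**
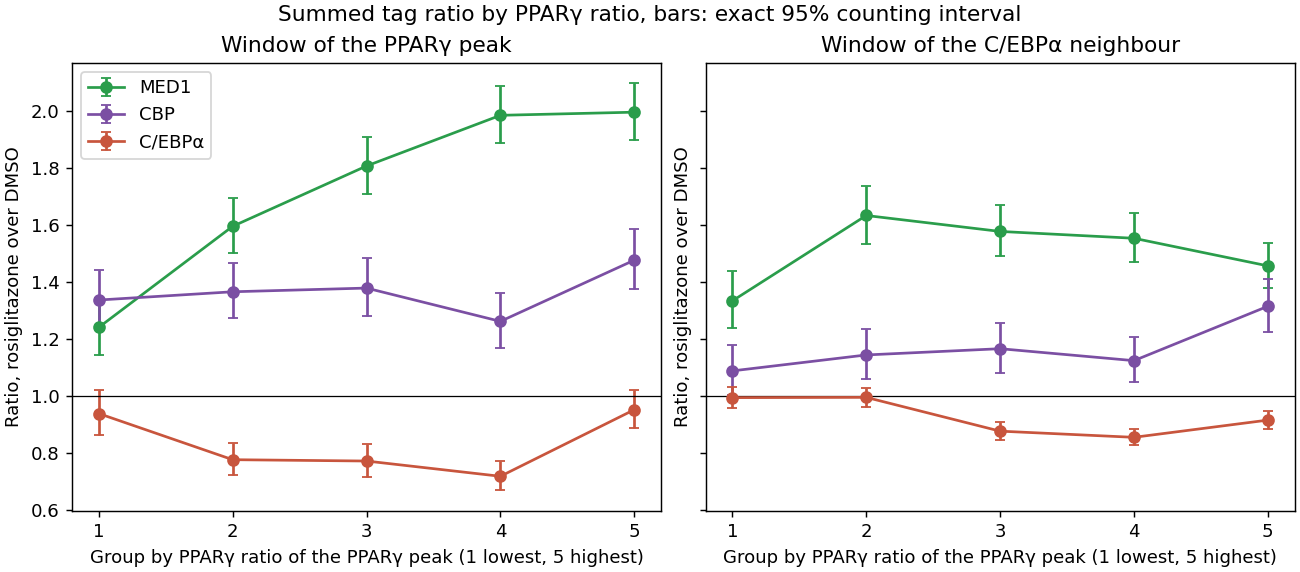
Ratio of summed tags, rosiglitazone over DMSO (vertical axes), of MED1 (green), CBP (purple) and C/EBPα (red) in 5 groups of pairs ordered by the PPARγ ratio of the PPARγ peak (horizontal axes), in the window of the PPARγ peak (left) and of the C/EBPα neighbour (right), with bars for the exact 95% counting interval. On the left MED1 goes up from 1.24 in group 1 to 1.985 in group 4, and is 1.996 in group 5. It stays between 1.33 and 1.63 on the right. Pairs whose neighbour has no PPARγ peak are shown, without the chromosome 17 locus.

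Individual sites showed the range behind these sums. Among the 10 adjacent peaks of highest score, PPARγ was higher in rosiglitazone in 10, MED1 in 9, CBP in 7 and C/EBPα in 1. Over all PPARγ peaks the median log2 ratio was 0.50 for PPARγ and 0 for the other factors. In the highest score band, summed ratios at shared PPARγ peaks were 1.68 for PPARγ, 1.03 for C/EBPα, 1.68 for MED1 and 1.45 for CBP. At isolated peaks of that band they were 1.56, 1.09, 1.63 and 1.605. The share of all high-scoring peaks in each direction was not counted, so the 10 are described only. Some of the 10 held few tags. The peak on chromosome 16 from 57126490 had 3 MED1 tags in rosiglitazone and 0 in DMSO, and 3 and 2 C/EBPα tags. That on chromosome 5 from 145705743 had 0 CBP tags in both. By score, the chromosome 17 locus was followed by a peak on mm9 chromosome 7 from 25669539 to 25669725, 347 bp from its neighbour. It held PPARγ signal of 273.5 units in rosiglitazone and 184.7 in DMSO, and MED1 signal of 252 and 45.4 units, a MED1 ratio of 5.56 (2.85 to 11.5). C/EBPα in it was 1.27 and 6.62 units, and in its neighbour 29.3 and 26.5 units. The neighbour also held PPARγ signal of 15.8 units in rosiglitazone and 2.64 in DMSO, a ratio of 5.99 (1.76 to 31.6).

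A locus on chromosome 17 showed adjacent peaks on both sides of 1 neighbour. The C/EBPα peak from 56250036 to 56250266 shared bases with a PPARγ peak and was flanked by adjacent peaks from 56249238 to 56249424 and from 56250581 to 56250767. The first flank held MED1 signal of 1064 units in rosiglitazone and 301 in DMSO, a ratio of 3.54 (2.69 to 4.69), and the second 406 and 136 units, a ratio of 2.98 (1.93 to 4.62). The neighbour held 727 and 245 units, a ratio of 2.97 (2.16 to 4.11). MED1 was thus higher in rosiglitazone in all 3 windows. C/EBPα differed between the flanks: it was 11.5 units in rosiglitazone and 35.3 in DMSO in the first, and 112 and 24.3 units in the second. PPARγ in the second flank was 248 and 50.1 units, a ratio of 4.94 (3.71 to 6.68).

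Without rosiglitazone, almost no PPARγ was counted at the chromosome 8 peak that starts at 113249230 and ends at 113249416. Its log2 ratio, 5.19 with a pseudocount of 1, ranked first at that setting. It held 120 PPARγ tags in rosiglitazone and 2 in DMSO, a ratio of 56.7 (15.4 to 474), and 25 and 3 MED1 tags. CBP in it was 121 units in rosiglitazone and 24.3 in DMSO, a ratio of 4.99 (2.28 to 11.5). With a pseudocount of 0.5, 2 peaks with 0 PPARγ tags in DMSO ranked above it, on chromosome 14 from 78250295 with 35 tags in rosiglitazone and on chromosome 12 from 32035758 with 27. The C/EBPα neighbour of the chromosome 8 peak, 248 bp away, held C/EBPα signal of 48.4 and 17.7 units, a ratio of 2.74 (1.26 to 6.80).

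At the other end, a peak on chromosome 3 from 121234462 to 121234648 held 3 PPARγ tags in rosiglitazone and 23 in DMSO, a ratio of 0.123 (0.0237 to 0.408). Its neighbour, 286 bp away, went the other way, with 21 and 2 PPARγ tags, a ratio of 9.93 (2.43 to 87.3). Apart from the chromosome 8 peak, the 4 highest and 4 lowest PPARγ ratios were at peaks with scores of 7.7 to 23.1.

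The coactivators could differ in opposite directions at 1 site. For the peak at 109247622 to 109247808 of chromosome 4, 0 MED1 tags were counted in rosiglitazone and 33 in DMSO, at least 5.02-fold lower when 3 tags are set for the empty library. CBP at the same peak was 97.0 units in rosiglitazone and 17.7 in DMSO, a ratio of 5.49 (2.22 to 14.8), while PPARγ was 39.1 and 31.7 units. In contrast, a peak on chromosome 19 from 44549825 to 44550011 was lower in both, with 1 MED1 tag in rosiglitazone and 32 in DMSO, and 1 and 23 CBP tags.

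Among the neighbours of the 10 peaks of highest score, 1 had far more C/EBPα in rosiglitazone. Beside the adjacent peak on chromosome 5 from 145705743 to 145705929, the neighbour from 145705947 to 145706177 held 158 units of C/EBPα in rosiglitazone and 15.5 in DMSO, a ratio of 10.2 (4.81 to 25.9). The adjacent peak itself held PPARγ signal of 300.1 units in rosiglitazone and 127.5 in DMSO, with C/EBPα at 24.2 and 35.3 units. The most MED1 and the most CBP among adjacent peaks were both at chromosome 10 from 117147642 to 117147828, which lies in a region of high background. MED1 there was 1377 units in rosiglitazone and 566 in DMSO, CBP was 412 and 228 units, and C/EBPα was 54.8 and 141 units.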

How the data were processed

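PPARγ and C/EBPα peak lists on mm9 were used. The submitters' processing notes name Bowtie, edgeR, FastQC and HOMER, with no version or setting. The authors deposited a normalised signal per peak for 4 factors in 2 treatments, a peak score, and a focus ratio, which is a fraction per peak. The PPARγ columns carry no replicate name, although the labels list 2 PPARγ samples per treatment, so whether they were pooled is unknown. In all 8 columns 100% of the signal values were whole multiples of 1 step (tolerance 0.02 steps). If the deposited signal is scaled to 10 M tags, which no header states, depths in rosiglitazone and DMSO were 12.0 and 11.4 M tags for PPARγ, 7.85 and 4.53 M for C/EBPα, 1.31 and 2.86 M for MED1, and 1.65 and 4.52 M for CBP.

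Windows were 186 bp (PPARγ) and 230 bp (C/EBPα, except 3), so densities are per kb. With 1 column per factor and treatment no test of treatment was made. Summed tags gave ratios with exact Clopper-Pearson 95% intervals. Ratios of ratios have exact conditional intervals, and values at equal total tags are Mantel-Haenszel estimates over 12 strata. Ratios per peak used a pseudocount of 1. High background means 1 Mb regions with at least 5 unshared peaks whose median tags of the other factor were at least 3 times those of all unshared peaks. The procedures were tested on simulated data. Python 3.11.15, numpy 2.4.6, scipy 1.17.1, pandas 2.3.3 and matplotlib 3.10.9 were used.

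The set and its comparisons were chosen with earlier results of these data known. Named sites were the 10 of highest score, the 4 highest and 4 lowest log2 ratios per factor among peaks with at least 20 tags, the 4 with most MED1 and the 4 with most CBP, and the 3 on each side of the distance limit. Only the sites that show the range are described. The comparison at equal total tags, the removal of the chromosome 17 locus, 2 rescalings and the shares by distance within each kind of neighbour were chosen after seeing the data. Gene names, motifs and sequences were not used here, since the reference tables were of another build than mm9.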

Additional observations from a re-analysis of the deposited data

How the results depend on the processing

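Among the recomputed values that answer a comparison, 99 stayed within the counting interval of the reported value or, for counts, within 1.5 times it; 54 moved beyond it in the same direction, and 3 changed direction. The 64 values of single sites under other pseudocounts kept their direction and stayed past 2-fold, but their size depended on the pseudocount. Causes of these shifts were not tested, except that filters leave fewer peaks. The removal of the chromosome 17 locus, the values at equal total tags, both rescalings, and the shares by distance within each kind of neighbour were chosen after seeing the data.

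The 3 changes of direction were the CBP ratio at adjacent peaks relative to isolated peaks, 0.959; the MED1 share in the PPARγ window in rosiglitazone over 500 bp, 49.97%; and the CBP share in DMSO within 500 bp, 50.6%. The other shares were, within 500 bp, 54.6% and 52.3% for MED1 in rosiglitazone and DMSO and 53.2% for CBP in rosiglitazone. Over 500 bp they were 46.7% for MED1 in DMSO, and 45.5% and 43.7% for CBP in rosiglitazone and DMSO.

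Relative to isolated peaks, adjacent ratios were 1.16 for PPARγ and 1.11 for MED1. Relative to the other C/EBPα peaks without a PPARγ peak, they were 1.15 for PPARγ, 0.799 for C/EBPα, 1.55 for MED1 and 1.25 for CBP. In the upper part of the list by score they were 1.64 for PPARγ, 0.873 for C/EBPα and 1.43 for CBP. With at least 20 tags they were 0.902 for C/EBPα and 1.95 for MED1, and the median of single ratios was 1.58 for PPARγ, 0.894 for C/EBPα and 1.93 for MED1. Where the neighbour had no PPARγ peak, C/EBPα at adjacent peaks was 0.811.

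At neighbours, PPARγ was 1.77 and C/EBPα 0.895 within 500 bp, and MED1 1.75 and CBP 1.33 with at least 20 tags. At neighbours without a PPARγ peak, PPARγ was 1.76, MED1 1.51 and CBP 1.17. There the window ratio of ratios was 0.881 for C/EBPα, 1.17 for MED1 and 1.16 for CBP.

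Adjacent over isolated, the upper part by score gave 1.11 for PPARγ, 0.834 for C/EBPα and 0.923 for CBP. Against peaks over 10 kb from C/EBPα the value was 1.23 for PPARγ and 1.07 for MED1. At equal total tags it was 1.12 for PPARγ and 1.06 for MED1. The C/EBPα density in adjacent windows, averaged over treatments, was 23.9 units per kb over 500 bp and 29.3 without the chromosome 17 locus.

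Counts of single peaks depended on the settings. With a pseudocount of 5, the 2-fold limit was passed upward by 734 adjacent peaks and downward by 32 for PPARγ, by 222 and 270 for C/EBPα, and downward by 476 for CBP. The shares of adjacent and of all PPARγ peaks at that setting were 21.7% and 20.5% upward and 0.945% and 1.78% downward for PPARγ, 6.56% and 8.42% upward and 7.97% and 5.67% downward for C/EBPα, and 14.1% and 11.1% downward for CBP. Centred on the median of all PPARγ peaks, 534 (15.8%, against 15.6% of all) were higher and 300 (8.86%, against 13.4%) lower for PPARγ. Keeping only peaks of at least 20 tags left 19 up and 16 down for C/EBPα, 256 and 28 for MED1, and 60 and 20 for CBP. A limit of 500 bp kept 1761 adjacent peaks.

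No paired analysis was possible because each factor had 1 column per treatment and the PPARγ columns carried no replicate number; leaving out a replicate could not be done for the same reason. Analyses by gene list were not run, since no mm9 annotation was used here. Most single windows held too few MED1, CBP or C/EBPα tags for a 2-fold difference to be read at 1 site, and enrichment per library was not measured, so ratios between treatments depend on the authors' scaling. The scale factor of each library cancels in ratios of ratios. Unlike shares of background tags in the classes compared need not cancel, and their part was not tested.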
